A study of Homo sapiens with 96 samples.

Results

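The 46 genes described here encode proteins of mitosis and of its spindle, and 2 transcription factors that drive them, FOXM1 and MYBL2. They were chosen by name from a deposited table of 58434 genes, and all 46 were found in it. Levels were measured by mRNA sequencing in 96 libraries from cells derived from the human embryonic stem cell line H9, which is established and widely used. Each of 10 groups was a neuron and astrocyte culture at day 10 of differentiation from neural progenitors that had been exposed to 1 of 5 compounds: acrylamide, an industrial and dietary chemical, chlorpyrifos, an organophosphate insecticide, fluoxetine, an antidepressant, methyl mercury, or valproic acid, an anti-seizure drug. Every compound was given at IC5 and at IC20/100. The labels do not spell these terms out, and they are read here as the concentration that inhibits by 5% and a 100-fold dilution of the one that inhibits by 20%. The control group was the same culture at day 10 with no exposure, and NPC were the unexposed neural progenitor cells at day 0. Chlorpyrifos, fluoxetine and methyl mercury were dissolved in dimethyl sulfoxide, at 0.25% in the medium, while medium alone served for acrylamide and valproic acid. The labels do not give molarities, how long the exposure lasted, or whether the control medium held the solvent. Each group had 8 libraries, which the labels describe as technical replicates of 1 experiment, so every p-value below measures only the spread between libraries of 1 culture experiment.

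A cell divides its copied chromosomes in mitosis. The kinase CDK1, switched on by cyclins, starts the process, microtubules and motor proteins build the spindle, kinetochores attach each chromosome to it, and a checkpoint holds the cell until all are attached. The anaphase-promoting complex then releases the sister chromatids, and the cell is split at the spindle midzone. The mRNAs of these proteins are low in resting cells and accumulate in G2 and mitosis, when MYBL2 and FOXM1 act with the MuvB complex at their promoters. The DREAM complex, which contains MuvB and an E2F repressor, shuts the same promoters in resting cells. In the nervous system, progenitors divide and neurons do not, so these mRNAs are commonly used as a sign of dividing cells. The libraries are bulk samples: fewer dividing cells and less mRNA per dividing cell cannot be told apart in them.

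Many mitotic promoters carry the cell cycle genes homology region (CHR), TTTGAA or TTCGAA, which MuvB binds, and the CCAAT box, which the factor NF-Y binds. The 8 promoters below are chosen examples and do not stand for all 46 genes. All but the last hold both motifs within the 100 bases shown, as do 38.5% of the 39 genes with a known promoter. The last, MYBL2, holds neither motif. Each is the stretch of 100 bases that ends just before the start used by its RefSeq promoter, read in the direction of the gene, in build GRCh38.p14. The gene annotation used to match names starts some of these genes elsewhere, such as MYBL2 at chr20:43667019 and PLK1 at chr16:23677656. The positions are chr15:59105046-59105145 on the plus strand for CCNB2, chr16:23678789-23678888 on the plus strand for PLK1, chr1:43358881-43358980 on the plus strand for CDC20 and chr10:128126424-128126523 on the minus strand for MKI67. The others lie on the plus strand, KIF4A at chrX:70290004-70290103, KIF11 at chr10:92593030-92593129, ESPL1 at chr12:53268199-53268298 and MYBL2 at chr20:43667014-43667113. Capitals mark a CHR or a CCAAT box on either strand. A CHR of the first form reads TTCAAA on the other strand, and the second form is its own complement. The CCAAT box, read from the opposite strand, becomes ATTGG. In MKI67 1 CHR and 1 CCAAT box overlap.
CCNB2: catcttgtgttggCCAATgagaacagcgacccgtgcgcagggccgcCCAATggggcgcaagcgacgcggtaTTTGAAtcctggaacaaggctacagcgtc
PLK1: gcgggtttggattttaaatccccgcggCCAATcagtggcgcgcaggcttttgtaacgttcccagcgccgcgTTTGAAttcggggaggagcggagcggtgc
CDC20: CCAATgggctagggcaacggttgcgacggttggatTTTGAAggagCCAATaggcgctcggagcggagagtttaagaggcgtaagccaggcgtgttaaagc
MKI67: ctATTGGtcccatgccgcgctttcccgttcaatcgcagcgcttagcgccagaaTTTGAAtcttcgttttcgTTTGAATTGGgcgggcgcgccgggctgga
KIF4A: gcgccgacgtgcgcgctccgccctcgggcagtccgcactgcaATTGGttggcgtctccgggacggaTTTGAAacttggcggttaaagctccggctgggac
KIF11: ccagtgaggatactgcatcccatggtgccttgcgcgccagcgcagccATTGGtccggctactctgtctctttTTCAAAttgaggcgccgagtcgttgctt
ESPL1: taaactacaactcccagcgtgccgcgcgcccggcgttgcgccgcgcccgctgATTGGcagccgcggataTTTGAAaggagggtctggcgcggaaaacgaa
MYBL2: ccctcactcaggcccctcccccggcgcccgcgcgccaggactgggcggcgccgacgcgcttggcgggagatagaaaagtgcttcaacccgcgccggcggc

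The CHR stood within the last 100 bases in 7 of these 8 promoters. Its first base lay 29 bases before the start in CCNB2 and in PLK1, 28 in KIF11, 31 in ESPL1, 34 in KIF4A and 65 in CDC20, and MKI67 held a pair of CHRs, 47 and 29 bases before it. A RefSeq promoter was matched to 39 of the 46 genes, and the window searched ran from 250 bases before the start to 50 bases after it. In it, 30 of 39 genes (76.9%) had a CHR, against 17.5% of all 15843 protein-coding genes with a promoter. A CCAAT box was present in 31 (79.5%), against 42.1% of all, and both motifs were present in 25 (64.1%), against 7.28% of all. The genes with neither were MYBL2, the kinesin gene KIF2C and the kinetochore motor gene CENPE. Of 28 genes of DNA replication and S phase, 24 had a promoter: 2 of those (8.33%) held a CHR and 19 (79.2%) a CCAAT box. Of 60 further mitotic genes that are not among the 46, 51 had a promoter, and 78.4% of these held a CHR and 70.6% a CCAAT box. Within the last 100 bases before the start, 48.7% of the 39 had a CHR and 71.8% a CCAAT box, against 5.25% and 25.2% of all genes. These are matches of letters, not measured binding. TPX2, PBK, AURKA, UBE2C, TTK, FOXM1 and BIRC5 were not matched to a promoter.

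**Figure D1:**
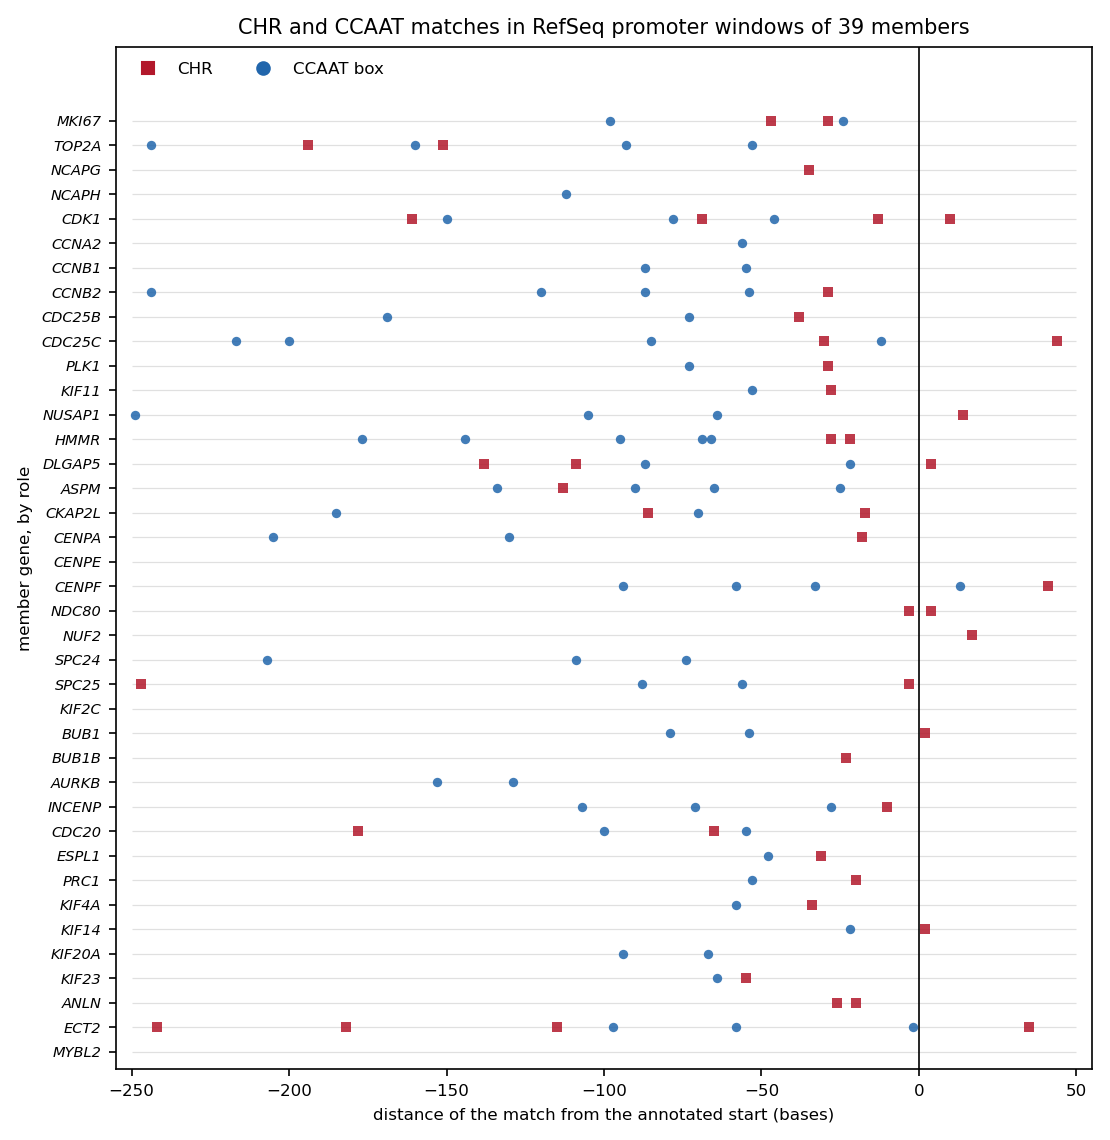
Position of the cell cycle genes homology region (CHR) and of the CCAAT box in the promoters of the 39 matched genes, in bases from the start used by the RefSeq promoter (x axis), 1 gene per row. CHRs were found in 30 genes and CCAAT boxes in 31, and many CHRs sit close to the start, on its upstream side.

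Recovered reads per library ran from 9.49 to 29.6 megareads, with a median of 18.9 megareads, and each of the 46 genes was covered by 55 to 12590 reads in every library. All 46 passed the filter on low values in both fits. Levels below are the authors' size-factor normalized counts, which allow 1 gene to be compared between groups, not 1 gene with another. A log2 change is the limma estimate on log2(value + 2), adjusted for sequencing run, and a call needs p under 0.05 after Benjamini-Hochberg adjustment across the whole set of genes in the fit. The controls held reads of the neuronal genes DCX (24960 to 29690) and TUBB3 (19320 to 23980). The 10 astrocyte markers summed to 9850 to 11140 in controls, and 95.2% of that sum came from GLUL (5048 to 5518), SLC1A2 (2298 to 3432) and SLC1A3 (1718 to 2335), which neural progenitors and other cells also express. Of the markers that define mature astrocytes, GFAP had 8.37 to 48.6, S100B 14.1 to 24.0, ALDH1L1 4.98 to 50.2 and AQP4 0 to 19.5, with AQP4 at 0 in 1 of 8 libraries. Methyl mercury IC20/100 replicate 8 stood apart from its group in the summed neural progenitor markers and in 5 of the members screened, and valproic acid IC20/100 replicate 8 in 3. Counts of genes were recomputed without either library. The shares of all genes called are not given beside these recounts or those under other settings, which are not set against a background. Acrylamide IC5 replicate 6 and methyl mercury IC5 replicate 4, which stood apart in some members, were not left out.

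The 46 genes differed in how tightly libraries of 1 group agreed. The median coefficient of variation within a group was 12.9% over the genes, and 43 of them had medians between 4.9% (TPX2, which targets Aurora A to the spindle) and 22.0% (NDC80). CENPE, a kinetochore motor, varied with a median of 68.9%, NUF2, a subunit of the NDC80 microtubule-binding complex, with 51.5%, and CDC25B, a phosphatase that activates CDK1, with 36.5%. In the controls the lowest, median and highest CENPE values were 479.7, 1702 and 4761, and those in NPC were 724, 3429 and 8664. NUF2 had 337, 1139 and 1426 in controls and CDC25B had 542, 1164 and 1382. Highest over lowest library reached 18.5 for CENPE, 12.0 for NUF2 and 4.06 for CDC25B in at least 1 group. These libraries are labelled as technical replicates, and the 3 genes have the widest errors in every comparison below.

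**Figure D2:**
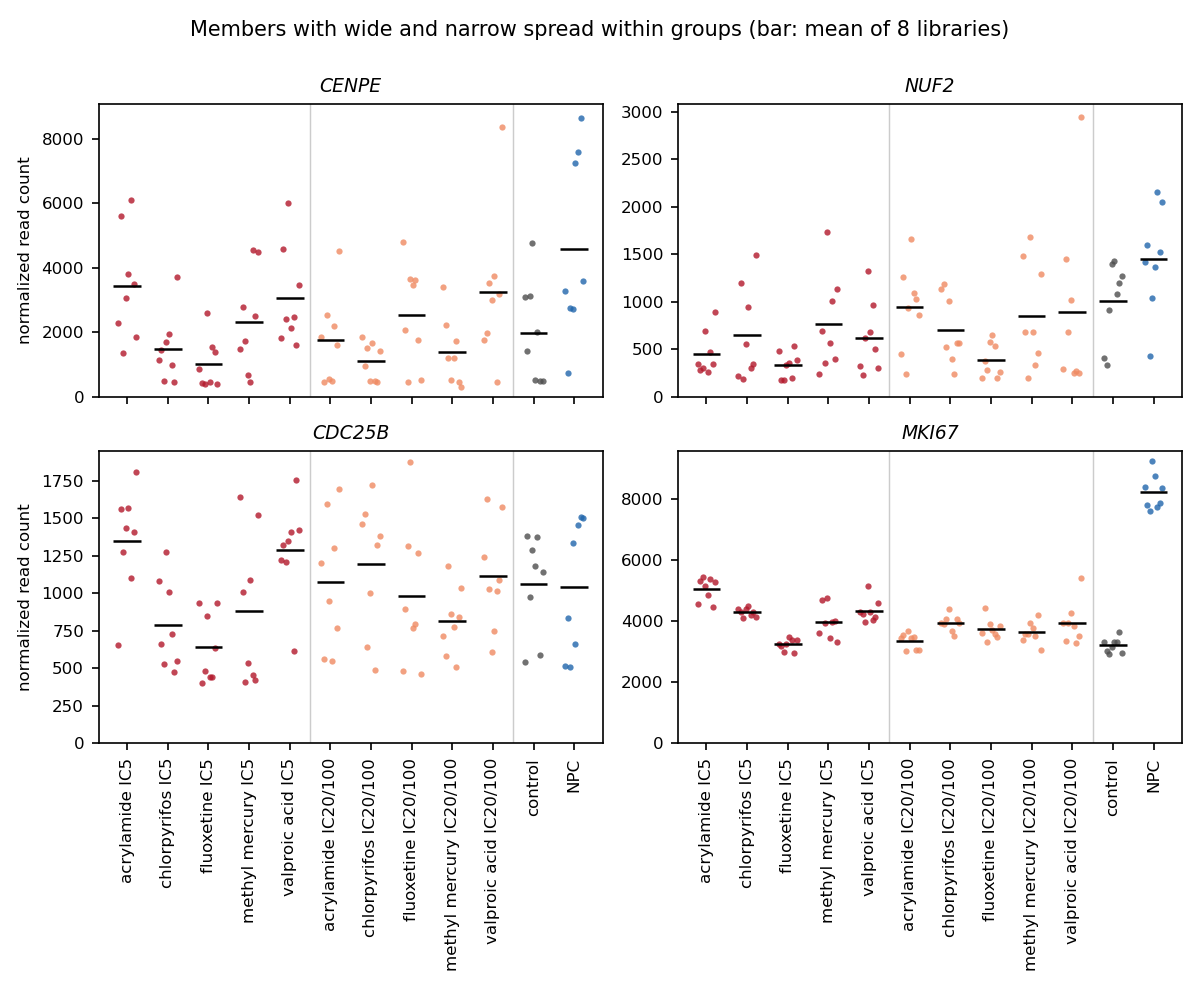
Normalized count (linear axis) of CENPE, NUF2, CDC25B and, for contrast, MKI67 in each of the 96 libraries, by group. Exposed groups stand left of the controls, and NPC comes last. CENPE and NUF2 spread widely within single groups, while MKI67 keeps 2924 to 3656 in the 8 controls and 7623 to 9263 in the 8 NPC libraries.

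Between day 0 and day 10 the mitotic genes fell together. In the unexposed day 10 cultures 44 of the 46 were lower than in NPC and 0 were higher, at a median log2 change of -0.99, whereas the median over all 18063 genes tested was -0.01 (limma, adjusted p under 0.05). Differentiation changed most of the transcriptome, and 36.8% of all genes were called lower and 33.9% higher (70.7% in either direction), so the 44 are read against 36.8%. For 38 of the 44 the 8 libraries of each group did not overlap. Within each of the 6 sequencing runs 42 changed the same way, the exceptions being PLK1 and CENPE (5 of 6 runs). Overlap and run agreement were not counted over all genes, here or below. Such counts describe the called genes and are not set against a background. The fall differed much between genes, from -0.21 for PLK1 to -2.42 for MYBL2.

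As a role, the transcription factors had the median furthest from 0, at -2.10 over 2 genes. MYBL2, the MYB family member of dividing cells, had lowest, median and highest values of 417, 479 and 639 in controls and 2571, 2621 and 2933 in NPC, and FOXM1, a forkhead factor of G2 and mitosis, had 477, 611 and 703 in controls and 1805, 1959 and 2322 in NPC. Neither gene's groups overlapped. MYBL2 averaged 498 ± 71.5 in controls and 2654 ± 118 in NPC (SD, n = 8 each), a log2 change of -2.42 with an SE of 0.079 (limma, adjusted p = 1.45e-10). FOXM1 averaged 600.4 ± 80.4 in controls and 2006 ± 175 in NPC, a log2 change of -1.78 (adjusted p = 1.98e-09). All 4 genes of the chromosome surface and structure were lower, at a median of -1.45. NCAPH and NCAPG, condensin I subunits that compact chromosomes, changed by -1.78 and -1.54, and MKI67, which coats mitotic chromosomes, by -1.36. TOP2A, the topoisomerase that untangles sister chromatids, changed least of the 4, at -0.76.

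All 8 genes of spindle poles and assembly, all 7 of midzone and cytokinesis, all 3 of the spindle checkpoint and all 3 of the chromosomal passenger complex were lower, as were 7 of 8 at the kinetochore. ANLN, the cytokinetic scaffold anillin, changed by -1.54, KIF11, the kinesin that pushes spindle poles apart, by -1.41, and SPC24, an NDC80 complex subunit, by -1.40. Of the 7 genes of entry into mitosis 6 were lower, at a median of -0.77. CCNB1, cyclin B1, had 806, 913 and 1005 in controls and 1795, 1943 and 2137 in NPC, with no overlap. The smallest falls that passed the test were those of CDC20 and PLK1. CDC20, which activates the anaphase-promoting complex, had 923, 1153 and 1294 in controls and 1282, 1448 and 1492 in NPC, and PLK1, Polo-like kinase 1, had 989.6, 1054 and 1228 in controls and 1147, 1237 and 1424 in NPC. Their ranges overlapped between the groups, but the changes of -0.30 (limma, adjusted p = 0.00195) and -0.21 (adjusted p = 0.00463) passed the test. The 3 genes of anaphase onset, CDC20, UBE2C and ESPL1, had a median of -0.45.

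CDC25B and NUF2 did not pass. CDC25B averaged 1059 ± 333 in controls and 1041 ± 453 in NPC, with a log2 change of 0.19 and an SE of 0.209 (limma, adjusted p = 0.428), and NUF2 had a log2 change of -0.30 with an SE of 0.312 (adjusted p = 0.402). The call for CENPE, at -1.33 with an SE of 0.556 and an adjusted p of 0.0488, was lost under 5 of 8 alternatives, among them edgeR and DESeq2. Marker sums moved in the same comparison. Neuronal markers summed to 104600 to 111800 in controls and 83250 to 90060 in NPC, mesenchymal and pericyte markers to 1666 to 2159 and 3618 to 4834, pluripotency markers to 792 to 936 and 1509 to 1954, and neural progenitor markers to 102000 to 109500 and 107100 to 114000, in each case controls before NPC. Within the progenitor list VIM, vimentin, went the other way (68850 to 75020 in controls, 45960 to 48160 in NPC), and the other 11 genes summed to 32910 to 35710 in controls and 61130 to 67450 in NPC. The part of cell type makeup in the fall was not tested.

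**Figure D3:**
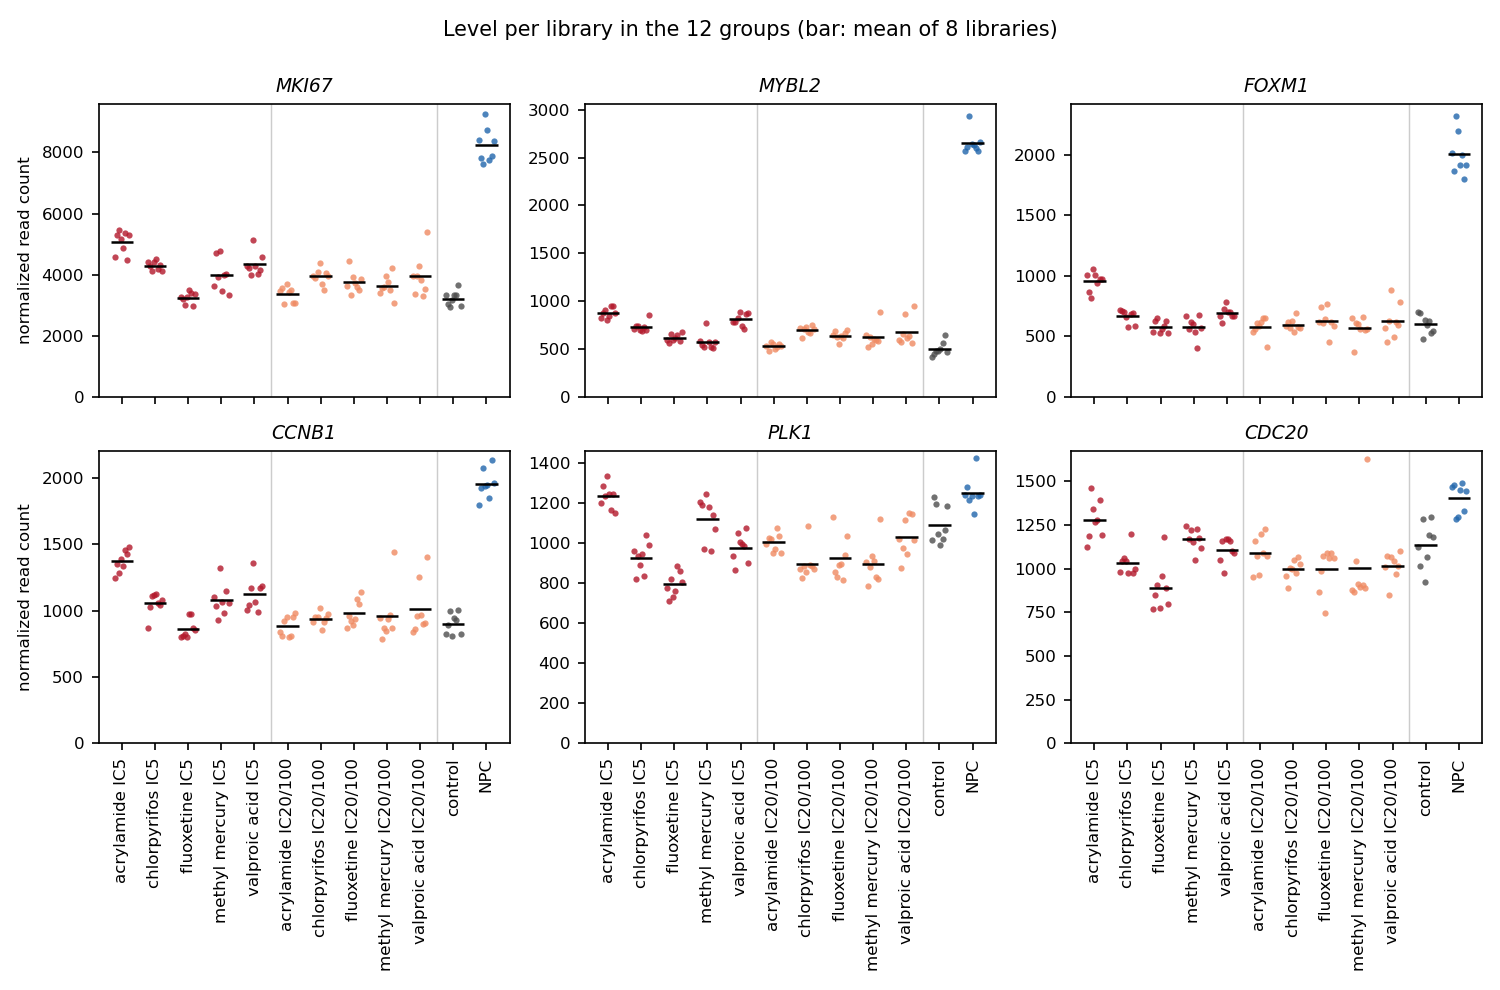
Normalized count (linear axis) of MKI67, MYBL2, FOXM1, CCNB1, PLK1 and CDC20 in each library, by group. IC5 groups come first, then IC20/100 groups, then controls and NPC, and the bar is the group mean. NPC libraries lie far above all day 10 groups for MYBL2 and FOXM1, and overlap the controls for PLK1 and CDC20.

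Among the exposed cultures the mean log2 level of the 46 genes was highest with acrylamide IC5, at 9.75 ± 0.0568, and lowest with fluoxetine IC5, at 9.17 ± 0.0829, against 9.38 ± 0.0555 in controls and 10.40 ± 0.0411 in NPC (SD, n = 8 libraries). Between these ends came valproic acid IC5 (9.59 ± 0.0989), methyl mercury IC5 (9.51 ± 0.106), valproic acid IC20/100 (9.47 ± 0.194), chlorpyrifos IC5 (9.46 ± 0.0888), chlorpyrifos IC20/100 (9.42 ± 0.0618), fluoxetine IC20/100 (9.41 ± 0.0354), acrylamide IC20/100 (9.37 ± 0.0622) and methyl mercury IC20/100 (9.32 ± 0.0609). The acrylamide IC5, valproic acid IC5 and fluoxetine IC5 libraries did not overlap with the controls, and neighbours in the rest of the order differed by less than their SDs. Without replicate 8, the library at 9.856, valproic acid IC20/100 averaged 9.41 ± 0.124 (n = 7), which places it beside the chlorpyrifos and fluoxetine IC20/100 groups. Methyl mercury IC5 replicate 4, at 9.752, stood apart on this measure from the others of its group (9.395 to 9.55) and was not left out. No exposed group reached the NPC range. The 10 comparisons with controls below share the same 8 control libraries.

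With acrylamide IC5, 31 of the 46 genes were higher than in controls and 1 lower, at a median log2 change of 0.34 (all genes, -0.01). Of all genes tested, 20.5% were called higher and 21.5% lower (42% in either direction), so the share of mitotic genes called higher lay well above that of all genes. The libraries of the groups did not overlap for 17 of the 32, and 28 changed the same way in all 6 runs. The genes that rose were all 4 genes of the chromosome surface and structure, both transcription factors, 5 of 7 genes of entry into mitosis, 6 of 8 of spindle poles and assembly, 5 of 7 of midzone and cytokinesis, 4 of 8 at the kinetochore, 2 of 3 of the checkpoint, 2 of 3 passengers and 1 of 3 of anaphase onset.

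ESPL1, separase, which cuts the cohesin that holds sister chromatids, rose most among the genes that passed. It had lowest, median and highest values of 712, 864 and 1182 with acrylamide IC5 and 347, 499 and 607 in controls. MYBL2 had 801, 872 and 952 with acrylamide IC5 and 417, 479 and 639 in controls. KIF4A, a chromosome-bound kinesin of the midzone, had 947, 1024 and 1071 with acrylamide IC5 and 526, 627 and 674 in controls. For none of the 3 did the groups overlap. The log2 changes were 0.93 for ESPL1 (SE 0.13, limma adjusted p = 6e-09), 0.83 for MYBL2 (SE 0.0801, adjusted p = 1.3e-14) and 0.75 for KIF4A (SE 0.0676, adjusted p = 1.01e-15). FOXM1 followed at 0.67, MKI67 at 0.65, CCNB1 and BIRC5, which encodes survivin of the passenger complex, at 0.59 each, and ASPM, a spindle pole protein that keeps neural progenitor divisions symmetric in mice, at 0.57. KIF20A, a midzone kinesin, rose by 0.54, TOP2A by 0.54 and KIF11 by 0.53.

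The genes that did not pass with acrylamide IC5 included CDK1 itself, the kinase that drives mitosis, with 781, 1049 and 1506 against 736, 960.4 and 1261 in controls and a log2 change of 0.21. CDC20 (0.17) and UBE2C (0.14), a ubiquitin-conjugating enzyme of the anaphase-promoting complex, also stayed under the threshold, as did BUB1B, a checkpoint kinase (0.10), HMMR, a spindle assembly factor (0.05), PRC1, a midzone bundler (0.18), and ECT2, the exchange factor that starts the cleavage furrow (-0.11). CENPE had 1.03 with an SE of 0.528 (limma, adjusted p = 0.112). NUF2 went against the rest: 254, 339.9 and 895 with acrylamide IC5, against 337, 1139 and 1426 in controls, with overlap, a log2 change of -1.28 and an adjusted p of 0.00707. PLK1 rose by 0.18 (adjusted p = 0.0109), with overlapping ranges of 1151 to 1337 and 989.6 to 1228 in acrylamide IC5 and control libraries.

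Cell type markers moved in the acrylamide IC5 libraries too. Neural progenitor markers summed to 80190 to 88380 with acrylamide IC5, against 102000 to 109500 in controls. Most of that gap was VIM, at 48600 to 53900 with acrylamide IC5 and 68850 to 75020 in controls, and the other 11 genes summed to 31590 to 34480 and 32910 to 35710, with overlap. Neuronal markers summed to 103200 to 107200 and 104600 to 111800, and astrocyte markers to 11290 to 12080 and 9850 to 11140, exposed before control. Single progenitor markers went both ways, with log2 changes of 1.29 for LIN28A, 0.96 for PROM1, 0.50 for PAX6, -0.37 for SOX2 and -0.83 for FABP7. Their part in the rise of the mitotic genes was not tested.

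With valproic acid IC5, 19 of the 46 genes were higher and 1 lower than in controls (median 0.19), where 14.5% of all genes were called higher and 12.4% lower (26.9% in either direction). With chlorpyrifos IC5, 12 were higher and 1 lower (median 0.13), where 9.92% of all genes were higher and 9.75% lower (19.7% in either direction). MYBL2 gave the largest change that passed in both, and MKI67 rose in both. MYBL2 had 711, 803 and 882 with valproic acid IC5 and 688, 719 and 849 with chlorpyrifos IC5, against 417, 479 and 639 in controls. MKI67 had 3991, 4256 and 5141 with valproic acid IC5 and 4107, 4295 and 4513 with chlorpyrifos IC5, against 2924, 3235 and 3656 in controls. None of these ranges overlapped with the controls. Both genes included, the groups did not overlap for 4 of the 20 genes called with valproic acid IC5 and 2 of the 13 called with chlorpyrifos IC5. The change had the same direction in all 6 runs for 11 of the 20 and 9 of the 13. The log2 changes of MYBL2 were 0.70 (limma, adjusted p = 2.3e-11) and 0.56 (adjusted p = 4.96e-08), and those of MKI67 0.43 (adjusted p = 1.09e-07) and 0.42 (adjusted p = 4.12e-07), valproic acid before chlorpyrifos in each pair.

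With valproic acid IC5 the rise covered all 4 genes of the chromosome surface and structure, 4 of 8 at the kinetochore and 4 of 8 of spindle poles and assembly, but 1 of 7 of entry into mitosis and none of the 3 genes of anaphase onset or of the checkpoint. Kinetochore genes gave log2 changes of 0.53 for NDC80, 0.48 for SPC24, 0.42 for SPC25 and 0.40 for CENPF. NCAPH rose by 0.43, KIF4A by 0.41, KIF11 by 0.35 and CCNB1 by 0.31. The smallest log2 changes were 0.00 for KIF14, 0.02 for UBE2C and -0.03 for CDC20. With chlorpyrifos IC5, 0.49 for SPC24, 0.33 for KIF4A, 0.30 for ASPM, 0.30 for PBK, 0.29 for INCENP and 0.28 for NCAPG were among the log2 changes that passed, PBK being a mitotic kinase of less settled role and INCENP the scaffold of the passenger complex. AURKB, TPX2 and BUB1B moved least there, at 0.00 for AURKB, 0.03 for TPX2 and -0.02 for BUB1B. CENPE and NUF2 had wide estimates that did not pass, 0.97 and -0.76 with valproic acid IC5 and -0.24 and -0.84 with chlorpyrifos IC5, as did CDC25B with chlorpyrifos IC5 (-0.43). The 1 lower gene was PLK1 in both groups. It had 866, 989 and 1076 with valproic acid IC5 and 819, 941 and 1038 with chlorpyrifos IC5, against 989.6, 1054 and 1228 in controls, with overlap and log2 changes of -0.16 (limma, adjusted p = 0.0384) and -0.24 (adjusted p = 0.00243). With no filter on low values the chlorpyrifos IC5 count fell to 8 of 46, and the valproic acid call for PLK1 was lost.

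Beside these counts, the neuronal marker sum was 110700 to 117600 with valproic acid IC5 and 109800 to 116000 with chlorpyrifos IC5, against 104600 to 111800 in controls. The neural progenitor sum was 99710 to 109100 with valproic acid IC5 and 85560 to 92600 with chlorpyrifos IC5, against 102000 to 109500 in controls, and pluripotency markers summed to 1030 to 1646 and 619.9 to 813, against 792 to 936. Without VIM, which had 60280 to 68600 with valproic acid IC5 and 52770 to 57840 with chlorpyrifos IC5, against 68850 to 75020 in controls, the other 11 progenitor genes summed to 39440 to 41420 with valproic acid IC5, above all controls, and 32010 to 34760 with chlorpyrifos IC5, overlapping them (32910 to 35710). Their part in the counts was not tested.

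With methyl mercury IC5, 6 of the 46 genes were higher and 0 lower (median 0.14), where 4.85% of all genes were called higher and 6.06% lower (10.9% in either direction). The 6 were KIF20A (0.36), CDC25C, a CDK1-activating phosphatase (0.32), KIF4A (0.31), MKI67 (0.29), CCNB1 (0.24) and KIF11 (0.21), each a log2 change, and 3 of the 6 genes changed the same way in all 6 runs. In either direction the count of 6 lies near the 10.9% of all genes. A total of 41 of the 46 estimates were positive, a number that was not set against all genes. No called gene had groups that did not overlap: MKI67 had 3320, 3952 and 4771 with methyl mercury IC5 and 2924, 3235 and 3656 in controls. The groups of BUB1, a checkpoint kinase, did not overlap (737 to 836 with methyl mercury IC5, 605 to 714 in controls), yet its log2 change of 0.18 did not pass (limma, adjusted p = 0.0853). Without methyl mercury IC20/100 replicate 8 or without valproic acid IC20/100 replicate 8, which both enter the shared estimate of spread, the count became 9. NUF2, CDC25B, SPC24 and NDC80 had estimates of -0.64, -0.45, 0.34 and 0.34 that did not pass. CENPA, PRC1 and NCAPH moved least, at 0.02 for CENPA, 0.02 for PRC1 and 0.02 for NCAPH. The neuronal marker sum was 92760 to 100400 with methyl mercury IC5, against 104600 to 111800 in controls, and the neural progenitor sum 94110 to 101500, against 102000 to 109500. Without VIM the progenitor sum was 29270 to 33460 with methyl mercury IC5 and 32910 to 35710 in controls, with overlap. Their part in the count was not tested.

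Fluoxetine IC5 went the other way. Of the 46 genes, 14 were lower and 1, MYBL2, was higher than in controls (median -0.17), where 5.94% of all genes were called lower and 5.47% higher (11.4% in either direction). The genes that fell were PLK1, the spindle factors TPX2, AURKA (Aurora A) and CKAP2L, the anaphase genes CDC20 and UBE2C, the kinetochore genes CENPA, CENPF and NUF2, the cytokinesis genes KIF14, KIF23 and ECT2, and the cyclins CCNA2 and CCNB2. All 4 genes of the chromosome surface and structure, all 3 of the checkpoint and all 3 passengers failed to pass.

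PLK1 had 713, 789.9 and 885 with fluoxetine IC5, against 989.6, 1054 and 1228 in controls, and TPX2 had 1115, 1207 and 1281, against 1348, 1414 and 1567 in controls. For these 2 genes of the 14 the groups did not overlap, and 10 of the 15 called genes changed the same way in all 6 runs. The log2 changes were -0.45 for PLK1 (SE 0.0611, limma adjusted p = 2.24e-08) and -0.25 for TPX2 (adjusted p = 1.4e-05). UBE2C averaged 605 ± 48.1 with fluoxetine IC5 and 784 ± 66.0 in controls, a log2 change of -0.37 (adjusted p = 3.23e-05). CDC20 had 768, 870.1 and 1181 with fluoxetine IC5, against 923, 1153 and 1294 in controls, overlapping, with a log2 change of -0.36 (adjusted p = 0.000683). The others but NUF2 ranged from -0.18 for CCNA2 to -0.38 for CKAP2L. The CKAP2L call was lost under 4 of 11 alternatives, and CCNA2 changed the same way in 4 of 6 runs. NUF2, at 171 to 532 with fluoxetine IC5 and 337 to 1426 in controls, changed by -1.76. MKI67 had 2961, 3269 and 3487 with fluoxetine IC5 and 2924, 3235 and 3656 in controls, a log2 change of 0.01. KIF11, SPC25 and NUSAP1, a spindle microtubule bundler, moved as little, at 0.00 for KIF11, 0.00 for SPC25 and -0.01 for NUSAP1.

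MYBL2 had 566, 602 and 678 with fluoxetine IC5, against 417, 479 and 639 in controls, overlapping, with a log2 change of 0.31 (limma, adjusted p = 0.00449). CDC25B (-0.72, adjusted p = 0.0798) and CENPE (-0.88, adjusted p = 0.331) had large estimates that did not pass. In the fluoxetine IC5 libraries neural progenitor markers summed to 100200 to 109200 and 102000 to 109500, exposed before control here and below. VIM had 69280 to 77120 and 68850 to 75020. Without VIM the other 11 progenitor genes summed to 30690 to 33150 and 32910 to 35710, lower on average (31790 and 34290) but with overlap. Neuronal markers summed to 101600 to 109300 and 104600 to 111800. The part of these markers in the fall was not tested.

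At IC20/100 few mitotic genes passed. With acrylamide IC20/100 none of the 46 was called, where 0.0596% of all genes were (0.0497% higher and 0.00993% lower), and the counts were also 0 at an unadjusted p under 0.05, with edgeR and with DESeq2. The largest estimates there were -0.33 for NUF2, -0.22 for AURKB and 0.18 for SPC24, and the smallest -0.01 for TPX2, -0.01 for CDC25B and 0.01 for KIF11, on the log2 scale. With chlorpyrifos IC20/100 6 were higher and 1 lower (all genes 14.1% in either direction, 7.06% higher and 7.02% lower), with fluoxetine IC20/100 5 were higher and 2 lower (14.4%, 6.88% higher and 7.54% lower), and with methyl mercury IC20/100 1 was higher and 3 lower (15.8%, 8.21% higher and 7.6% lower). These shares lie near or under those of all genes and are no result about the mitotic genes as a group. With valproic acid IC20/100 2 were higher and 0 lower, where 1.17% of all genes were called higher and 1.37% lower (2.54% in either direction).

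The genes that passed were few and recurred, mainly with chlorpyrifos, fluoxetine and methyl mercury, the compounds dissolved in dimethyl sulfoxide. The labels do not say whether controls held that solvent, so compound and solvent cannot be told apart in these groups. All 6 runs had the same direction for 5 of 7 with chlorpyrifos IC20/100, 5 of 7 with fluoxetine, 3 of 4 with methyl mercury and 1 of 2 with valproic acid. MYBL2 had 613, 708 and 744 with chlorpyrifos IC20/100, 555, 636 and 692 with fluoxetine IC20/100, 521, 599 and 882 with methyl mercury IC20/100 and 556, 622 and 946 with valproic acid IC20/100, against 417, 479 and 639 in controls. Each of these ranges overlapped with that of the controls, and the log2 changes in the same order were 0.50, 0.36, 0.32 and 0.44. PLK1 had 827, 878 and 1084 with chlorpyrifos IC20/100, 815, 892 and 1130 with fluoxetine IC20/100 and 786, 891 and 1121 with methyl mercury IC20/100, against 989.6, 1054 and 1228 in controls, and its log2 changes in the same order were -0.28 (limma, adjusted p = 0.000503), -0.25 (adjusted p = 0.00234) and -0.28 (adjusted p = 0.000636). MKI67, KIF4A and SPC25 rose with chlorpyrifos and with fluoxetine, by 0.29, 0.25 and 0.26 with chlorpyrifos IC20/100 and by 0.22, 0.28 and 0.31 with fluoxetine IC20/100. ASPM and KIF11 also rose with chlorpyrifos (0.21 and 0.20), NUSAP1 rose and NUF2 fell with fluoxetine (0.28 and -1.36), and KIF14, a kinesin of cytokinesis, and ECT2 fell with methyl mercury (-0.38 and -0.26). The ECT2 call was lost under 4 of 11 alternatives.

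Among the genes that did not pass at IC20/100, NUF2 and CENPE had the largest estimates, -0.67 for NUF2 and -0.67 for CENPE with chlorpyrifos, 0.44 for CENPE with fluoxetine, -0.59 for NUF2 and -0.49 for CENPE with methyl mercury and -0.75 for NUF2 and 0.75 for CENPE with valproic acid. The kinetochore genes NDC80 and SPC24 had positive estimates that did not pass, 0.40 for NDC80 and 0.36 for SPC24 with chlorpyrifos, 0.33 for NDC80 and 0.34 for SPC24 with fluoxetine and 0.37 for NDC80 and 0.30 for SPC24 with valproic acid. The smallest log2 changes were 0.01 for BUB1, 0.01 for CCNA2 and 0.01 for PRC1 with chlorpyrifos, 0.01 for CCNA2, -0.01 for KIF2C and 0.01 for KIF23 with fluoxetine, 0.00 for CENPA, -0.01 for TOP2A and 0.01 for BUB1B with methyl mercury and 0.00 for HMMR, 0.00 for CCNB2 and 0.02 for BUB1 with valproic acid.

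Single libraries bear on these counts. No share of all genes is given beside the recounts that follow, so they are not read against a background. Without replicate 8, methyl mercury IC20/100 had MYBL2 at 521 to 640.4 (log2 change over controls 0.25), still overlapping with controls, and PLK1 at 786 to 933 (-0.32), below all controls, and its count became 6 of 46 (2 higher, 4 lower). Valproic acid IC20/100 without its replicate 8 had MYBL2 at 556 to 859.7 (0.37). Without methyl mercury IC20/100 replicate 8 the fluoxetine IC20/100 count became 13 of 46 (7 higher, 6 lower). The second gene called with valproic acid IC20/100, MKI67, had 3302, 3883 and 5410 against 2924, 3235 and 3656 in controls and a log2 change of 0.28. Without replicate 8 of that group, the library at 5410, MKI67 was no longer called and MYBL2 alone remained.

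Counted over the 10 exposed groups, MYBL2 was higher than in controls in 8 and lower in 0, with log2 changes from 0.09 to 0.83. MKI67 was higher in 7, KIF4A in 6, and KIF11 and SPC25 in 5. PLK1 was lower in 6 and higher in 1. CDK1, CDC25B, CENPE, BUB1B, HMMR and PRC1 were called in none. The comparisons share the 8 control libraries, so these counts are not independent of each other. In the groups of chlorpyrifos, fluoxetine and methyl mercury, compound and solvent cannot be told apart.

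**Figure D4:**
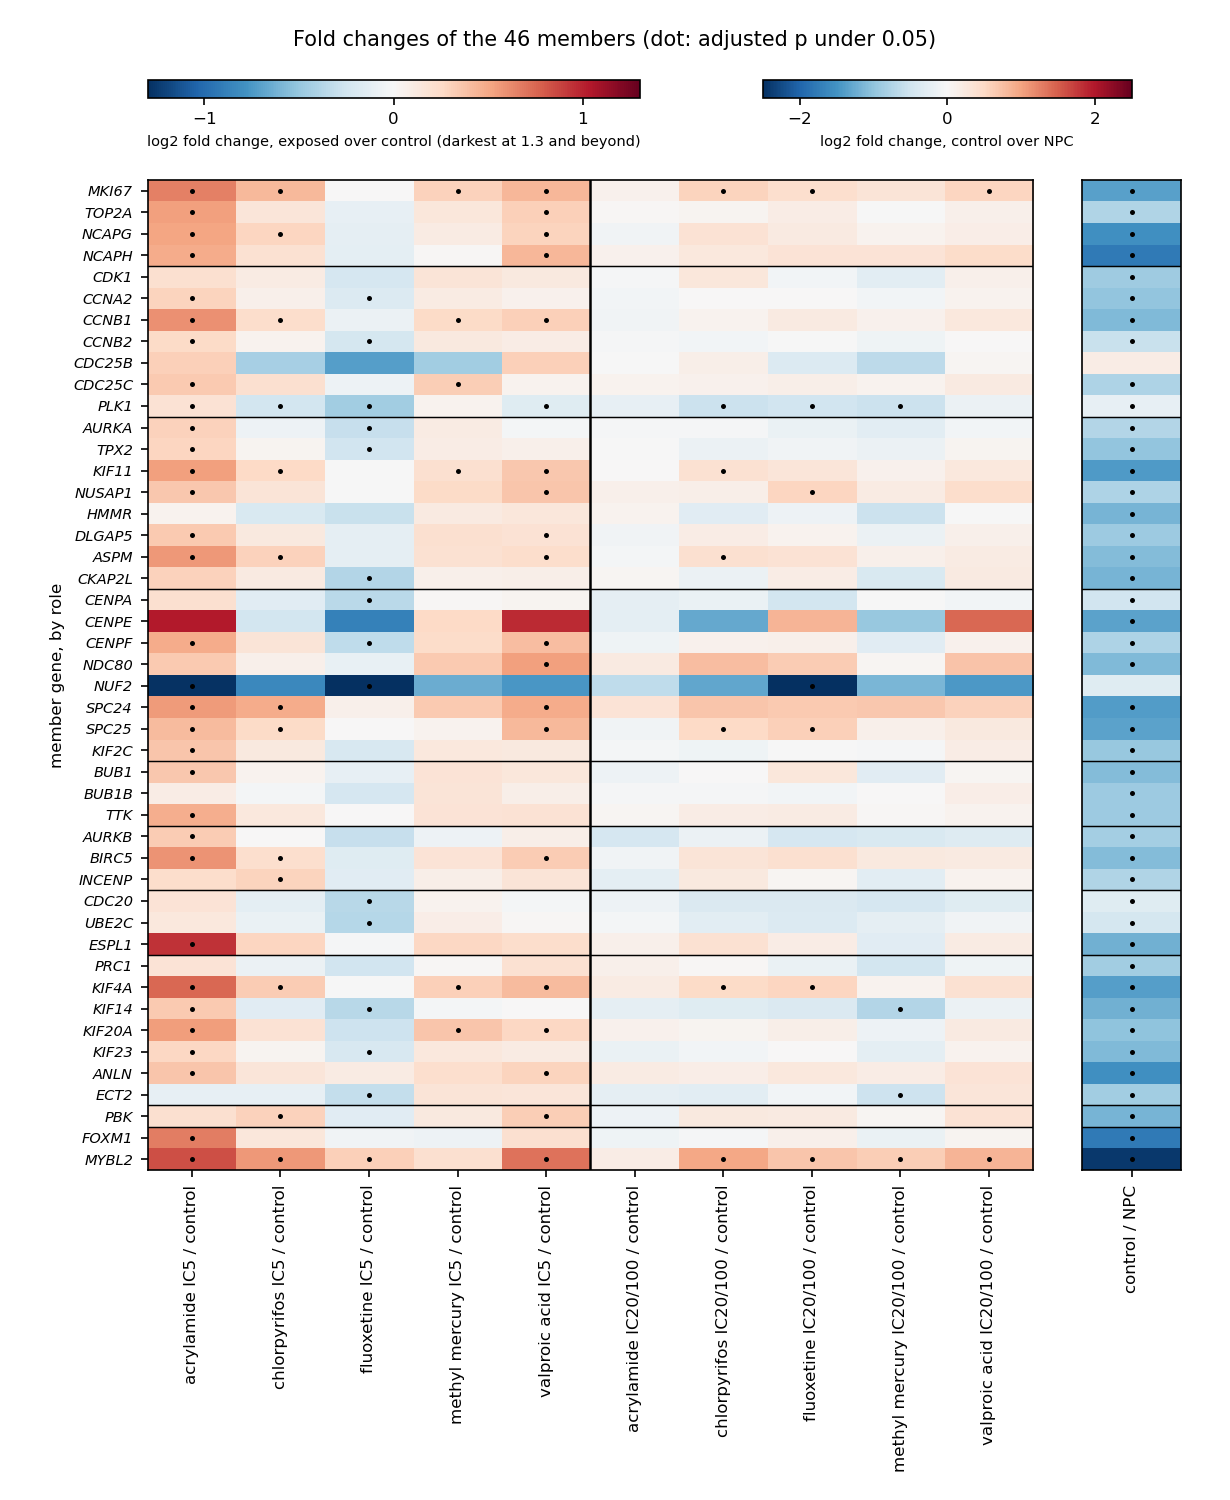
Log2 change (colour) of each of the 46 genes, in rows by role, for the 10 exposed groups over controls and, on its own scale, for controls over NPC; a dot marks limma adjusted p under 0.05. Acrylamide IC5 holds 31 higher genes and fluoxetine IC5 holds 14 lower ones, and 44 of 46 are lower in controls over NPC.

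The concentrations were compared directly for each compound. The direction was the same in all 6 runs for 28 of the 36 genes called with acrylamide, 8 of 14 with fluoxetine, 7 of 13 with methyl mercury and 0 of 7 with valproic acid. With acrylamide, 35 of the 46 genes were higher and 1 lower at IC5 than at IC20/100, where 20% of all genes were called higher and 21.1% lower (41.1% in either direction), and 17 had groups that did not overlap. ESPL1 (0.86), MYBL2 (0.74) and FOXM1 (0.73) led the log2 changes that passed, and ECT2 (0.00), HMMR (0.00) and PRC1 (0.11) moved least. The 1 lower gene was NUF2, at -0.96 with an SE of 0.405 (limma, adjusted p = 0.0496). With chlorpyrifos none of the 46 was called between IC5 and IC20/100, where 0.0497% of all genes were (0.0397% higher and 0.00993% lower). At an unadjusted p under 0.05 there were 3, and edgeR and DESeq2 each called 0. The estimates ran from -0.51 for CDC25B to 0.43 for CENPE.

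With fluoxetine, 14 of the 46 genes were lower and 0 higher at IC5 than at IC20/100, where 1.46% of all genes were called lower and 2.3% higher (3.76% in either direction). All 46 estimates were negative, with a median of -0.21 (all genes, -0.01). TPX2 had 1115, 1207 and 1281 at IC5 and 1328, 1370 and 1564 at IC20/100, and its groups did not overlap (log2 change -0.20, limma adjusted p = 0.0014). BIRC5 had 615, 718 and 806 at IC5 and 769.6, 928 and 999 at IC20/100, overlapping, with a log2 change of -0.37 (adjusted p = 0.00132). CKAP2L (-0.48), CENPF (-0.40), KIF20A (-0.34), ASPM (-0.31) and KIF4A (-0.29) were also lower at IC5. ANLN, MYBL2 and AURKB moved least, at -0.04 for ANLN, -0.06 for MYBL2 and -0.08 for AURKB. Fitted on the 16 libraries of these groups alone, 4 of the 46 passed.

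With methyl mercury, 13 of the 46 genes were higher and 0 lower at IC5 than at IC20/100, where 2.58% of all genes were called higher and 2.6% lower (5.17% in either direction). PLK1 had 962, 1159 and 1246 at IC5 and 786, 891 and 1121 at IC20/100, overlapping, a log2 change of 0.32 (limma, adjusted p = 0.000237). BUB1 had 737, 759.6 and 836 at IC5 and 546, 608 and 674 at IC20/100, not overlapping, a log2 change of 0.33 (adjusted p = 0.000895). ECT2, KIF20A, ESPL1 and HMMR gave 0.43 for ECT2, 0.42 for KIF20A, 0.41 for ESPL1 and 0.40 for HMMR, while FOXM1, SPC24 and CENPA gave 0.01 for FOXM1, -0.01 for SPC24 and 0.02 for CENPA. The ESPL1 call was lost under 4 of 11 alternatives. Without methyl mercury IC20/100 replicate 8 the count became 16, and the PLK1 groups did not overlap. Fitted on the 16 libraries alone, 1 of the 46 passed. With valproic acid, 7 genes were higher and 0 lower at IC5, where 9.73% of all genes were called higher and 7.27% lower (17% in either direction), a share of mitotic genes near that of all genes. They were CENPF (0.35), SPC25 (0.29), MYBL2 (0.26), TOP2A (0.25), BIRC5 (0.22), KIF11 (0.21) and KIF4A (0.21), and 2 of the 46 passed on those 16 libraries alone, against 10 without valproic acid IC20/100 replicate 8. The BIRC5 call was lost under 5 of 11 alternatives.

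Acrylamide IC5 was also compared with each other compound at IC5, concentrations named alike in the labels whose molarities the labels do not give. All 6 runs had the same direction for 36 of the 43 genes called against fluoxetine, 24 of 26 against chlorpyrifos, 14 of 20 against methyl mercury and 16 of 21 against valproic acid. Against fluoxetine IC5, 43 of the 46 genes were higher and 0 lower, where 17.5% of all genes were called higher and 18% lower (35.5% in either direction). All 46 estimates were positive, with a median of 0.53, and for 24 genes the groups did not overlap. CENPE (1.90), CDC25B (1.03), ESPL1 (0.95), CENPF (0.82) and KIF20A (0.81) gave the largest log2 changes, and ECT2 (0.20), ANLN (0.25) and NUF2 (0.47) were not called. Against chlorpyrifos IC5, 26 were higher and 0 lower (all genes 13% higher, 14.6% lower, 27.6% in either direction), with ESPL1 at 0.66, FOXM1 at 0.52 and KIF14 at 0.49. Against methyl mercury IC5, 19 were higher and 1 lower (all genes 17.8% higher, 19% lower, 36.8% in either direction), with FOXM1 at 0.74 and ESPL1 at 0.67. Against valproic acid IC5, 20 were higher and 1 lower (all genes 17.7% higher, 19.9% lower, 37.6% in either direction), with ESPL1 at 0.71, FOXM1 at 0.46 and PLK1 at 0.34. The 1 lower gene was ECT2 in both, at -0.27 against methyl mercury and -0.27 against valproic acid. These 4 comparisons share the acrylamide libraries. Chlorpyrifos, fluoxetine and methyl mercury were given in dimethyl sulfoxide and acrylamide was not. Compound and solvent cannot be told apart in the comparisons with those compounds.

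The ranges of 14 genes follow in all 12 groups. None of the 14 belongs to the spindle poles and assembly role. MKI67, the Ki-67 protein of the chromosome surface, ranged at IC5 from 4479 to 5461 with acrylamide, 4107 to 4513 with chlorpyrifos, 2961 to 3487 with fluoxetine, 3320 to 4771 with methyl mercury and 3991 to 5141 with valproic acid. MKI67 at IC20/100 ranged from 3038 to 3691 with acrylamide, 3505 to 4389 with chlorpyrifos, 3319 to 4439 with fluoxetine, 3056 to 4220 with methyl mercury and 3302 to 5410 with valproic acid, against 2924 to 3656 in controls and 7623 to 9263 in NPC. The IC5 ranges of acrylamide, chlorpyrifos and valproic acid lie wholly above the controls, and those of all exposed groups lie wholly under NPC. TOP2A, topoisomerase II alpha, ranged at IC5 from 5750 to 7872 with acrylamide, 4939 to 6369 with chlorpyrifos, 3663 to 5300 with fluoxetine, 4829 to 7730 with methyl mercury and 4799 to 7314 with valproic acid. The IC20/100 ranges of TOP2A were 4538 to 5539 with acrylamide, 4328 to 5550 with chlorpyrifos, 4514 to 6135 with fluoxetine, 4016 to 6057 with methyl mercury and 4424 to 6335 with valproic acid, against 3605 to 5731 in controls and 7690 to 9637 in NPC. Of the exposed ranges, the acrylamide IC5 one alone clears the controls, and the highest acrylamide and methyl mercury IC5 libraries enter the NPC range.

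CDK1, the mitotic kinase, ranged at IC5 from 781 to 1506 with acrylamide, 727 to 1435 with chlorpyrifos, 403 to 1099 with fluoxetine, 618 to 1270 with methyl mercury and 803 to 1314 with valproic acid. At IC20/100 the CDK1 ranges were 674 to 1110 with acrylamide, 724 to 1210 with chlorpyrifos, 713 to 1255 with fluoxetine, 596 to 1094 with methyl mercury and 792 to 1154 with valproic acid, against 736 to 1261 in controls and 1514 to 1961 in NPC. Every exposed range overlaps with the controls, and acrylamide IC5 stays just under NPC. CCNB1, the cyclin that binds it, ranged at IC5 from 1246 to 1479 with acrylamide, 871 to 1127 with chlorpyrifos, 800.3 to 978 with fluoxetine, 933 to 1320 with methyl mercury and 990.1 to 1358 with valproic acid. CCNB1 at IC20/100 ranged from 802 to 985 with acrylamide, 854 to 1023 with chlorpyrifos, 868 to 1138 with fluoxetine, 789 to 1441 with methyl mercury and 838 to 1408 with valproic acid, against 806 to 1005 in controls and 1795 to 2137 in NPC. Acrylamide IC5 lies wholly above the controls, and fluoxetine IC5 and acrylamide IC20/100 lie within or just under them. PLK1, a kinase of entry and of the spindle, ranged at IC5 from 1151 to 1337 with acrylamide, 819 to 1038 with chlorpyrifos, 713 to 885 with fluoxetine, 962 to 1246 with methyl mercury and 866 to 1076 with valproic acid. The IC20/100 ranges of PLK1 were 949 to 1076 with acrylamide, 827 to 1084 with chlorpyrifos, 815 to 1130 with fluoxetine, 786 to 1121 with methyl mercury and 875 to 1150 with valproic acid, against 989.6 to 1228 in controls and 1147 to 1424 in NPC. Fluoxetine IC5 lies wholly under the controls, and the NPC range overlaps with the controls and with several exposed groups. CDC25B, the phosphatase with wide spread, ranged at IC5 from 652 to 1808 with acrylamide, 474 to 1276 with chlorpyrifos, 400.1 to 938 with fluoxetine, 410.1 to 1640 with methyl mercury and 616 to 1754 with valproic acid. At IC20/100 the CDC25B ranges were 552 to 1696 with acrylamide, 489 to 1719 with chlorpyrifos, 462 to 1875 with fluoxetine, 511 to 1179 with methyl mercury and 606 to 1629 with valproic acid, against 542 to 1382 in controls and 511 to 1511 in NPC. All 12 ranges overlap.

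CENPF, a kinetochore protein of G2, ranged at IC5 from 3688 to 6695 with acrylamide, 2976 to 4427 with chlorpyrifos, 1958 to 2931 with fluoxetine, 3082 to 4442 with methyl mercury and 2647 to 5093 with valproic acid. The IC20/100 ranges of CENPF were 2386 to 4153 with acrylamide, 2729 to 3884 with chlorpyrifos, 2646 to 4119 with fluoxetine, 2071 to 3194 with methyl mercury and 2580 to 3705 with valproic acid, against 2656 to 3508 in controls and 4200 to 6911 in NPC. Acrylamide IC5 clears the controls, and fluoxetine IC5 reaches the lowest values. BUB1, a checkpoint kinase, ranged at IC5 from 788 to 919.8 with acrylamide, 618 to 826 with chlorpyrifos, 546 to 723 with fluoxetine, 737 to 836 with methyl mercury and 669 to 869 with valproic acid. At IC20/100 the BUB1 ranges were 553 to 766 with acrylamide, 566 to 828 with chlorpyrifos, 613 to 909.6 with fluoxetine, 546 to 674 with methyl mercury and 587 to 871 with valproic acid, against 605 to 714 in controls and 1281 to 1604 in NPC. Acrylamide IC5 and methyl mercury IC5 clear the controls, and methyl mercury IC20/100 does not reach the methyl mercury IC5 range. AURKB, the passenger complex kinase, ranged at IC5 from 584 to 773 with acrylamide, 398 to 669 with chlorpyrifos, 330.0 to 617 with fluoxetine, 452 to 609 with methyl mercury and 452 to 878 with valproic acid. AURKB at IC20/100 ranged from 376 to 570.2 with acrylamide, 364 to 689.8 with chlorpyrifos, 369.6 to 587 with fluoxetine, 259.6 to 662 with methyl mercury and 384 to 564 with valproic acid, against 442 to 697 in controls and 854 to 1030 in NPC. Every exposed range overlaps with the controls and lies under NPC, but for 1 valproic acid IC5 library. BIRC5, survivin of the same complex, ranged at IC5 from 1031 to 1397 with acrylamide, 812 to 1006 with chlorpyrifos, 615 to 806 with fluoxetine, 794 to 1070 with methyl mercury and 883 to 1084 with valproic acid. The IC20/100 ranges of BIRC5 were 615 to 894 with acrylamide, 788 to 995 with chlorpyrifos, 769.6 to 999 with fluoxetine, 719 to 1320 with methyl mercury and 694 to 1133 with valproic acid, against 677 to 910.3 in controls and 1585 to 1855 in NPC. Acrylamide IC5 clears the controls, and the highest methyl mercury IC20/100 library stands far above the rest of its group.

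CDC20, the anaphase activator, ranged at IC5 from 1122 to 1463 with acrylamide, 975 to 1200 with chlorpyrifos, 768 to 1181 with fluoxetine, 1052 to 1246 with methyl mercury and 973 to 1171 with valproic acid. CDC20 at IC20/100 ranged from 954 to 1226 with acrylamide, 889.7 to 1064 with chlorpyrifos, 745 to 1088 with fluoxetine, 864 to 1629 with methyl mercury and 846 to 1101 with valproic acid, against 923 to 1294 in controls and 1282 to 1492 in NPC. Every exposed range overlaps with the controls, and NPC overlaps with them too. KIF20A, a midzone kinesin, ranged at IC5 from 572 to 829 with acrylamide, 429.9 to 713 with chlorpyrifos, 324 to 476 with fluoxetine, 439.9 to 748 with methyl mercury and 453 to 749.7 with valproic acid. The IC20/100 ranges of KIF20A were 372 to 612 with acrylamide, 387 to 579.7 with chlorpyrifos, 411 to 614 with fluoxetine, 376 to 503 with methyl mercury and 381 to 691 with valproic acid, against 360.3 to 559 in controls and 779.6 to 1014 in NPC. Acrylamide IC5 clears the controls, and its highest library enters the NPC range. FOXM1, the forkhead factor, ranged at IC5 from 819.7 to 1054 with acrylamide, 574 to 714 with chlorpyrifos, 524 to 647 with fluoxetine, 402 to 671 with methyl mercury and 610.0 to 784 with valproic acid. At IC20/100 the FOXM1 ranges were 411 to 652 with acrylamide, 537 to 690.1 with chlorpyrifos, 454 to 769 with fluoxetine, 370.2 to 662 with methyl mercury and 451 to 883 with valproic acid, against 477 to 703 in controls and 1805 to 2322 in NPC. Acrylamide IC5 clears the controls, and no exposed library comes near NPC. MYBL2, the MYB factor, ranged at IC5 from 801 to 952 with acrylamide, 688 to 849 with chlorpyrifos, 566 to 678 with fluoxetine, 503 to 767 with methyl mercury and 711 to 882 with valproic acid. MYBL2 at IC20/100 ranged from 479.7 to 570.2 with acrylamide, 613 to 744 with chlorpyrifos, 555 to 692 with fluoxetine, 521 to 882 with methyl mercury and 556 to 946 with valproic acid, against 417 to 639 in controls and 2571 to 2933 in NPC. The IC5 ranges of acrylamide, chlorpyrifos and valproic acid clear the controls, and no exposed library comes near NPC.

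Other cell cycle lists were set beside the 46 genes, without a test of any list. The 60 further mitotic genes gave 1 higher and 55 lower in controls over NPC (median -1.14), 46 higher and 0 lower with acrylamide IC5 (0.40), 23 higher and 0 lower with chlorpyrifos IC5 (0.19), 2 higher and 5 lower with fluoxetine IC5 (-0.06), 14 higher and 0 lower with methyl mercury IC5 (0.15) and 28 higher and 0 lower with valproic acid IC5 (0.20), all over controls. With fluoxetine IC5 the called share of these 60 was 11.7%, beside 11.4% of all genes. ZWINT, a kinetochore gene, had the largest of these falls in controls over NPC, at -2.53, and PSRC1, a spindle gene, was the 1 higher, at 0.41. The 28 genes of DNA replication and S phase, which are needed before mitosis, gave 0 higher and 28 lower in controls over NPC (median -1.96), 27 higher and 0 lower with acrylamide IC5 (0.84), 25 higher and 0 lower with chlorpyrifos IC5 (0.47), 8 higher and 0 lower with fluoxetine IC5 (0.22), 13 higher and 0 lower with methyl mercury IC5 (0.27) and 25 higher and 0 lower with valproic acid IC5 (0.57).

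The S phase medians were further from 0 than those of the 46 mitotic genes in controls over NPC and in all 5 IC5 groups over controls. At IC20/100 the S phase counts were 19 higher and 0 lower with chlorpyrifos (0.38), 25 higher and 1 lower with fluoxetine (0.41), 18 higher and 0 lower with methyl mercury (0.30) and 15 higher and 0 lower with valproic acid (0.31), where the 46 mitotic genes had medians of 0.04, 0.07, -0.06 and 0.08. With acrylamide IC20/100 limma called 0 of the 28, with 0 at an unadjusted p under 0.05. With fluoxetine IC5 the lists differed in sign, with 8 of 28 S phase genes higher and 14 of 46 mitotic genes lower, and the difference between the lists was not tested.

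**Figure D5:**
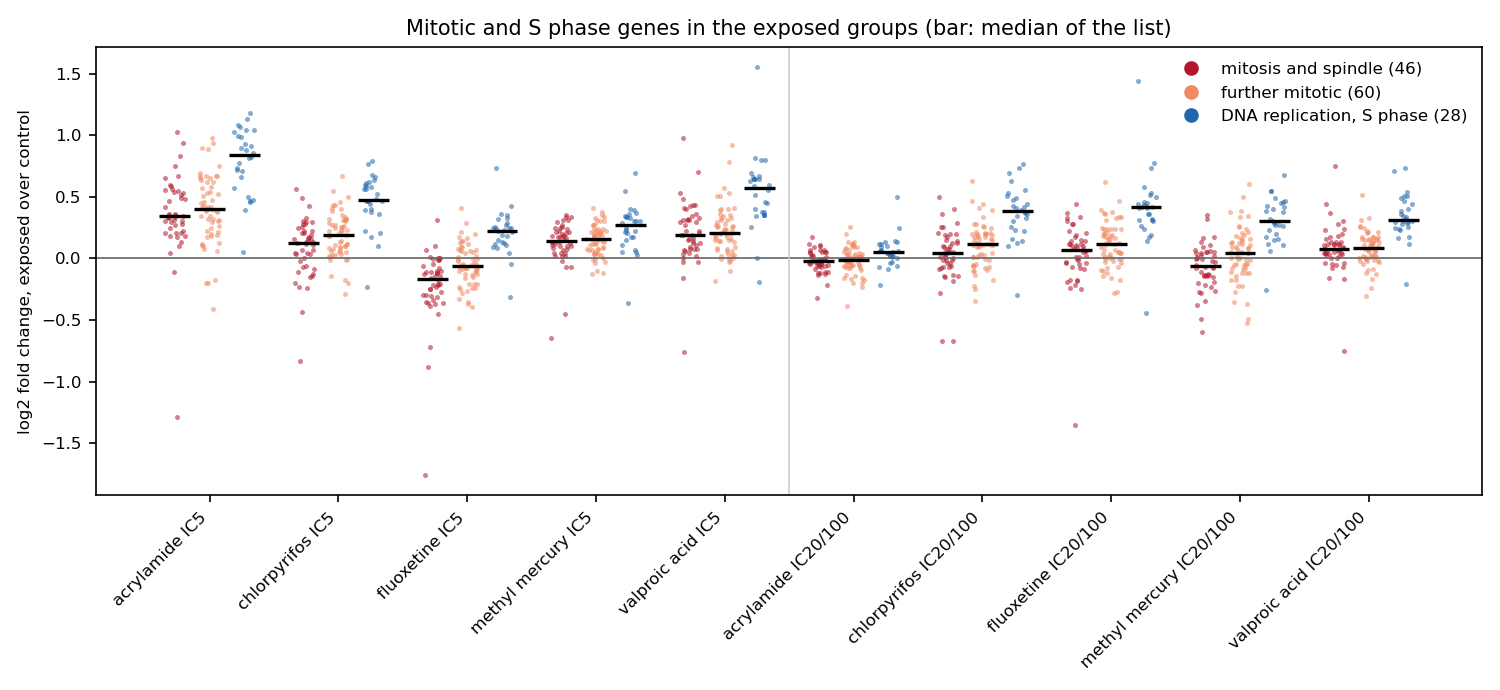
Log2 change of each gene over controls (y axis) for the 46 mitotic genes, the 60 further mitotic genes and the 28 genes of DNA replication and S phase in the 10 exposed groups; bars are medians. The S phase points lie above the mitotic points in most groups, and with fluoxetine IC5 the mitotic median is under 0 and the S phase median above it.

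Regulators of these genes were counted in the same way, beside the shares of all genes called. Of 20 DREAM and E2F genes, 1 higher and 13 lower were called in controls over NPC, 11 higher and 2 lower with acrylamide IC5, 5 higher and 1 lower with chlorpyrifos IC5, 2 higher and 1 lower with fluoxetine IC5, 5 higher and 0 lower with methyl mercury IC5 and 5 higher and 0 lower with valproic acid IC5. In either direction these counts are 70%, 65%, 30%, 15%, 25% and 25% of the list in the same order, where 70.7%, 42%, 19.7%, 11.4%, 10.9% and 26.9% of all genes were called, so the shares in controls over NPC, with fluoxetine IC5 and with valproic acid IC5 lie near the background and are no result about the list. E2F7 and E2F8, repressors that are themselves made in S phase, and RBL1, the p107 pocket protein, were among them: E2F7 changed by -2.24 in controls over NPC, and E2F8 and RBL1 by 1.26 and 0.88 with acrylamide IC5. Of 13 G1 cyclins and kinases, 1 higher and 12 lower were called in controls over NPC and 8 higher and 2 lower with acrylamide IC5, where the S phase cyclins CCNE1 and CCNE2 rose by 1.06 and 1.06. The counts over controls were 6 higher and 2 lower with chlorpyrifos IC5, 4 higher and 2 lower with fluoxetine IC5, 4 higher and 1 lower with methyl mercury IC5 and 7 higher and 1 lower with valproic acid IC5. As shares of the list, in the order used before, the G1 counts are 100%, 76.9%, 61.5%, 46.2%, 38.5% and 61.5%. The 16 subunits and activators of the anaphase-promoting complex gave 4 higher and 9 lower in controls over NPC, 1 higher and 3 lower with acrylamide IC5, 1 higher and 1 lower with chlorpyrifos IC5 and 0 higher and 2 lower with valproic acid IC5. These are 81.2%, 25%, 12.5% and 12.5% of the list, near the share of all genes in controls over NPC and under it in the 3 exposed groups. With fluoxetine IC5 and methyl mercury IC5 limma called 0 of the 16, with 3 and 2 at an unadjusted p under 0.05.

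Of 17 CDK inhibitors and mitotic brakes, 15 were tested in controls over NPC, with 8 higher and 5 lower. Over controls they gave 4 higher and 5 lower with acrylamide IC5, 2 higher and 6 lower with chlorpyrifos IC5, 3 higher and 4 lower with fluoxetine IC5, 3 higher and 3 lower with methyl mercury IC5 and 4 higher and 6 lower with valproic acid IC5. In either direction these are 86.7%, 60%, 53.3%, 46.7%, 40% and 66.7% of the 15 tested, controls over NPC first. CDKN1A, which encodes a CDK inhibitor, had 1648, 2206 and 2950 in controls and 362, 439 and 513 in NPC, a log2 change of 2.31. Every exposed group but acrylamide IC20/100 (-0.22, limma adjusted p = 0.82) had less CDKN1A than controls, with log2 changes of -0.53 with acrylamide IC5, -1.58 with chlorpyrifos IC5, -1.15 with fluoxetine IC5, -0.73 with methyl mercury IC5 and -1.0 with valproic acid IC5. At IC20/100 the changes were -1.45 with chlorpyrifos, -1.43 with fluoxetine, -1.33 with methyl mercury and -0.74 with valproic acid. The part of CDKN1A in the levels of the mitotic genes was not tested. CDKN1C, which encodes another CDK inhibitor, changed by -0.42 in controls over NPC. Among the exposed groups it rose with acrylamide IC5 (0.20) and valproic acid IC5 (0.25). Between concentrations CDKN1A passed with acrylamide (-0.32) and methyl mercury (0.60), IC5 over IC20/100, and CDKN1C with methyl mercury (-0.30). Acrylamide IC5 over the other IC5 groups gave CDKN1A changes of 1.05 over chlorpyrifos, 0.61 over fluoxetine and 0.47 over valproic acid. PKMYT1 and WEE1, kinases that hold CDK1 inactive, changed by -1.99 and -1.64 in controls over NPC.

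The profile of single genes over the 12 group means was set beside the mean of the 46 as a description, without a test, the points sharing the libraries and the step to NPC. Among the 46, NUF2 (Pearson r = -0.00172), ECT2 (0.538) and MYBL2 (0.663) followed the mean least over the 11 day 10 groups, and KIF23 (0.973), a centralspindlin kinesin, and CENPF (0.972) most. Of 15251 other protein-coding genes, the 10 most like the mean over all 12 groups were FLT4 (0.99), CEP55 and NEIL3 (0.987 each), MOB3B (0.983), ERCC6L, CDCA8, PIMREG and NCAPG2 (0.981 each), and PPM1D and CTBP2 (0.98 each).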

How the data were processed

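mRNA was purified by poly(A) capture and sequenced from stranded libraries, 16 per sequencing run over 6 runs, with 1 or 2 libraries of each group in every run, per the labels' protocols. The submitters' processing notes name bcl2fastq, FastQC 0.11.8, MultiQC 1.0, Salmon 1.3.0, DESeq2 1.30.0 and build GRCh38. Of the annotation, the release is not stated there. The deposited values are a signal per gene, gene counts that the authors divided by size factors. Dividing each column by its smallest step gave whole reads for 100% of values (tolerance 0.001), and these reads served for edgeR 4.0.16 and DESeq2 1.42.0 as alternatives. The main test was limma 3.58.1 (R 4.3.3, Python 3.11.15) with an intensity trend on log2(value + 2), for genes at 10 or more in at least 8 libraries, with group and run in the model. Controls and NPC (16 libraries, 18063 genes) and day 10 (88 libraries, 20136 genes) were fitted apart, and p-values were adjusted over all genes tested by the Benjamini-Hochberg method, in 20 comparisons. The pipeline was tested on simulated data. Within groups, 336 library pairs differed more than sampling noise (lowest chi-square per degree of freedom 16.6), so none was merged. Replicate numbers did not pair libraries: in 0 of 20 comparisons did every same-numbered pair correlate above 0.1.

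The members, the lists and the tests were chosen with earlier results of these data known. Every member could be named, 14 of them with values in every group, and in each comparison the 5 largest and 3 smallest log2 changes, up to 4 called genes of each other list, CDKN1A, CDKN1C and the 10 genes with the most similar profile. Alternatives were the pseudocount, no filter, TMM scaling, edgeR, DESeq2, no run term, a replicate block, a fit on the libraries compared, and leaving out 1 library. With 8 libraries a group, only 2 of the libraries that stood apart were left out, in turn. Others that stood apart, among them acrylamide IC5 replicate 6 and methyl mercury IC5 replicate 4, were not left out. Results for those groups were therefore not recomputed without them. Progenitor marker sums without VIM were added after the data were seen. One marker list is not reported here.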

Additional observations from a re-analysis of the deposited data

Results flagged for a closer look

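Dixon's criterion for 8 values was applied to the mean level of the 46 genes and to 17 single genes in each of 12 groups. It marked a library in 25 of 216 groups, where chance marks about 1 in 20.

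Methyl mercury IC20/100 replicate 8 stood above its group in 5 genes: CCNB1 at 1441, PLK1 at 1121, CDC20 at 1629, BIRC5 at 1320 and MYBL2 at 882. The other 7 libraries of that group ranged from 864.2 to 1043 for CDC20. In the same group replicate 2 stood below, with CENPF at 2071 and FOXM1 at 370.2. Valproic acid IC20/100 replicate 8 stood above its group in MKI67 (5410), NUF2 (2939) and CENPE (8388). Methyl mercury IC5 replicate 4 was high in TOP2A (7730), MYBL2 (767.3) and the mean log2 level of the 46 genes (9.752). Acrylamide IC5 replicate 6 was high in CDK1 (1506), CENPF (6695) and KIF20A (829.3).

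Among chlorpyrifos libraries, IC5 replicate 1 had CCNB1 at 870.8, below its group, and ECT2 at 1465, above it. IC5 replicate 6 had CDC20 at 1200, IC5 replicate 8 had MYBL2 at 849.2 and CENPE at 3701, and IC20/100 replicate 5 had PLK1 at 1084, each above its group. Fluoxetine IC5 replicate 6 was high in CDC20 (1181) and replicate 3 in ECT2 (1467). NPC replicate 3 was high in MYBL2 (2933).

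Differences between exposures, tested directly with limma, passed for 36 of the 46 genes between acrylamide IC5 and IC20/100. The counts were 14 for fluoxetine, 13 for methyl mercury and 7 for valproic acid. In the same order 41.1%, 3.76%, 5.17% and 17% of all genes were called, and the 7 for valproic acid lie near that share. Acrylamide IC5 differed from chlorpyrifos IC5 in 26 genes, from fluoxetine IC5 in 43, from methyl mercury IC5 in 20 and from valproic acid IC5 in 21. Of all genes 27.6%, 35.5%, 36.8% and 37.6% were called there, in that order. The counts against methyl mercury and valproic acid lie not far above these shares in either direction. Solvent differed as well as compound in these comparisons, except against valproic acid.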

How the results depend on the processing

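No member changed sign in a called comparison under any alternative run. Counts of members called moved by more than 1.5 times in these cases. The counts are given without the shares of all genes under the same setting and are not set against a background. With no filter on low values, chlorpyrifos IC5 over control gave 8 (13 in the analysis reported). Without methyl mercury IC20/100 replicate 8, fluoxetine IC20/100 over control gave 13 (7 reported). Without valproic acid IC20/100 replicate 8, a setting chosen after seeing the data, valproic acid IC20/100 over control gave 1 (2 reported), and fluoxetine IC20/100 over control gave 9, a smaller shift (7 reported). Fitted only on the libraries compared, methyl mercury IC20/100 over control gave 0 (4), valproic acid IC20/100 over control 0 (2), and IC5 over IC20/100 gave 4 for fluoxetine (14), 1 for methyl mercury (13) and 2 for valproic acid (7); such fits have fewer libraries to estimate the spread. The replicate block, although the numbers do not pair libraries, left 43 members called in controls over NPC (44) and gave 33 for acrylamide IC5 (32), 10 for fluoxetine IC20/100 (7) and 16 for methyl mercury IC5 over IC20/100 (13). Over 920 member calls, edgeR lost 7 and gained 2, DESeq2 lost 5 and gained 12, and the other pseudocounts changed 0. Counting error alone (100 over the square root of the reads, median over libraries) was 8.45% for CENPA, the member with fewest reads (at least 55), beside an observed coefficient of variation of 10.0%, so depth limits such genes. It was 2.3% for CENPE, 4.31% for NUF2 and 3.06% for CDC25B, beside 68.9%, 51.5% and 36.5%.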
